A study of Mus musculus with 12 samples.

Results

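The cerebellar granule cell genes described here are *Gabra6*, *Neurod1*, *Cbln1*, *Cbln3*, *Zic1*, *Zic2*, *Etv1*, *Barhl1*, *Fat2* and *Calb2*, which are 10 of the 52459 genes in each count table. They were taken by gene symbol from a list of known granule cell genes, which was drawn up with earlier results of these data known. RNA was sequenced from the cerebellum (Cb) and the forebrain/midbrain (F/M) of *Tpp1*-/- mice (T), whose *Tpp1* gene was disrupted by targeting, and of their wild-type siblings (N). *Tpp1* encodes the lysosomal protease tripeptidyl peptidase 1, whose loss causes late infantile neuronal ceroid lipofuscinosis. All mice were males of 4 months from heterozygous crosses, and the Cb-N, Cb-T, F/M-N and F/M-T groups held 3 libraries each, from 3 mice per genotype by the study's methods. The question asked of these genes was whether they fell by 1 common factor in Cb-T or by amounts that differ from gene to gene.

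Granule cells are small glutamatergic neurons packed in the inner layer of the cerebellar cortex, and they are the most numerous neurons of the brain. Mossy fibers excite them, Golgi cells inhibit them, and their axons, the parallel fibers, run through the molecular layer and contact the dendrites of Purkinje cells. Some of the 10 genes act when the granule cell is born and matures (*Barhl1*, *Zic1*, *Zic2*, *Neurod1*, *Etv1*). The others serve the finished cell as a GABA receptor subunit (*Gabra6*), as secreted or surface proteins of the parallel fiber (*Cbln1*, *Cbln3*, *Fat2*) or as a calcium buffer (*Calb2*).

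Total counts per library ranged from 21428379 to 24458189, so that 3 counts of a gene, the smallest level taken as detectable, were worth 0.122 to 0.141 CPM. That floor covers counting error only. CPM are counts divided by the library's total, adjusted by the TMM method within an area, on a scale common to all libraries. Counts of the 12 pairs of replicates differed with a chi-square of 1.27 to 3.37 per degree of freedom, so no replicate pair was alike within sampling noise. *Tpp1* itself followed the labels, with 114, 116 and 114 CPM in Cb-N against 28.7, 31.8 and 30.9 CPM in Cb-T, and with 85.2 to 91.3 CPM in F/M-N against 21.5 to 23.7 CPM in F/M-T.

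The 10 genes were cerebellar genes in the control libraries. All 10 were higher in Cb-N than in F/M-N at an FDR below 0.1 and at least 1.5-fold (a DEG), where 19.2% of the 16725 genes tested were DEG higher in Cb-N. The log2 difference ran from 2.33 for *Calb2* to 10.65 for *Gabra6*, with a median of 4.51 against 0.0092 over all genes tested. *Gabra6*, *Fat2* and *Cbln3* were very low in F/M, and their mean CPM in F/M-N was 0.0584%, 0.0766% and 0.0963% of that in Cb-N. *Cbln1*, *Neurod1*, *Zic1*, *Zic2* and *Barhl1* stood at 2.74% to 10.1% in F/M-N. *Etv1* and *Calb2*, which neurons of the cortex and olfactory bulb also express, stood at 16.4% and 18.8%.

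Per length of exon, the levels in Cb-N spanned 2 orders of magnitude. *Cbln3* was the highest with 362 ± 1.27 CPM per kb of exon (SD, n = 3), followed by *Gabra6* with 347 ± 2.12. *Cbln1* (214 to 224) and *Calb2* (206 to 215) came next and overlapped. *Zic1* stood at 178 ± 3.34 and *Neurod1* at 164 ± 3.64 CPM per kb. *Fat2* (64.7 to 72.4) and *Zic2* (63.4 to 67.9) also overlapped, and *Etv1* (40.3 ± 0.154) and *Barhl1* (3.4 ± 0.183) were the lowest. In Cb-T the order changed at 2 places: *Neurod1* (132 to 138 CPM per kb) stood above *Zic1* (123 to 129.6), and *Calb2* (212 to 218) had the higher mean than *Cbln1* (204 to 215), with libraries that overlapped. *Etv1* has many alternative exons that add up to 13296 bases, so its value per kb is lower than that of a single transcript would be.

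**Figure D1:**
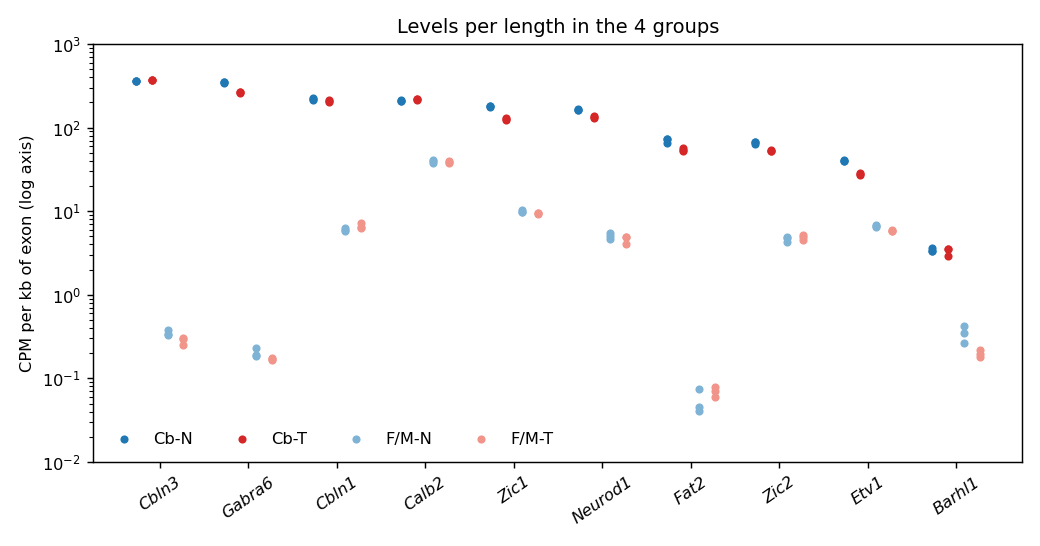
CPM per kb of exon, on a log axis, of the 10 genes in each of the 12 libraries, with 1 point per library and 1 color per group. All Cb points stand above the F/M points of the same gene, by the widest gap for Gabra6, Fat2 and Cbln3, and Cbln3 and Gabra6 lead in Cb.

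In Cb-T, 7 of the 10 genes were lower than in Cb-N at an FDR below 0.1 by the quasi-likelihood test of edgeR, none was higher, and 3 were not called. No member was higher at an unadjusted p under 0.05 in that test either, nor at an FDR below 0.1 with DESeq2 or limma-voom. Of the 16382 genes tested, 27.9% were lower and 29.8% were higher by the same rule. None of the 10 reached 1.5-fold, where 11.2% of all genes were DEG. The median log2 fold change was -0.31, against 0.012 over all genes tested. The members did not fall together: their log2 fold changes ran from -0.53 for *Etv1* to 0.041 for *Calb2*, a range of 0.57, whereas the median standard error of a member was 0.024. The 3 libraries of Cb-N and Cb-T did not overlap for 7 members, which was also true of 56.9% of all genes tested. These are bulk samples, in which fewer granule cells, less RNA per cell and a larger share of RNA from other cells or tissue cannot be told apart. The p-values rest on the spread between 3 mice per group, which edgeR moderates with the spread of all genes tested. Their small size thus also reflects other genes, and an exact two-sided permutation of 3 against 3 libraries cannot go below 0.1.

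**Figure D2:**
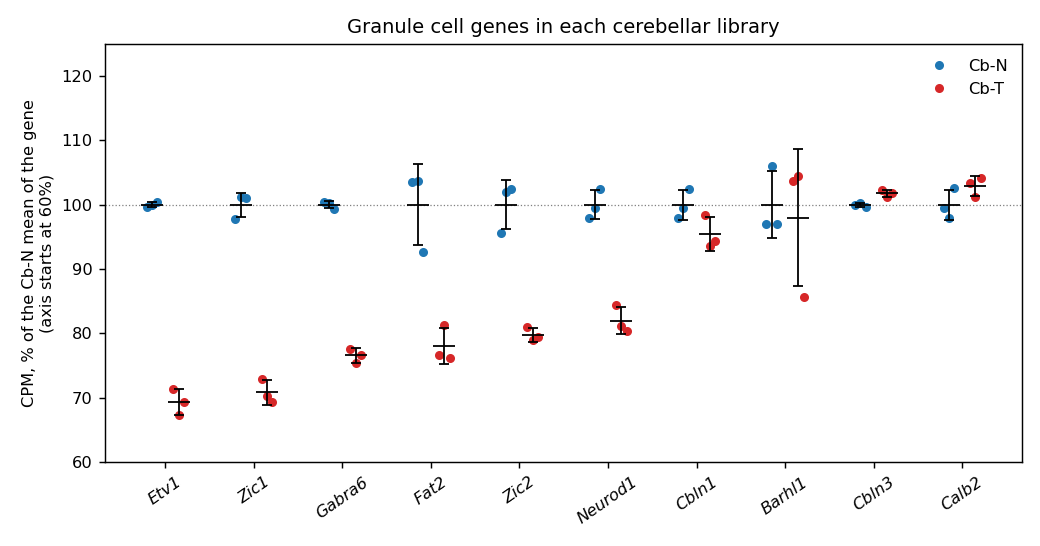
CPM of the 10 genes in the 6 Cb libraries, as a percentage of the Cb-N mean of each gene, with 1 point per library and a bar and whiskers for mean and SD. The axis starts at 60%. Etv1, Zic1, Gabra6, Fat2, Zic2 and Neurod1 lie below 100% in all 3 Cb-T libraries without touching Cb-N, whereas Cbln1, Barhl1 and Calb2 overlap and Cbln3 lies just above.

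Among the transcription factors, *Etv1* (chromosome 12, 38779380 to 38870484, plus strand, GRCm38), an ETS factor that drives the late maturation of granule cells, fell the most. Its level was 533, 535 and 537 CPM in Cb-N and 382, 360.0 and 371 CPM in Cb-T. Every Cb-T library lay below every Cb-N library, and *Etv1* fell by 30.7% (log2 fold change -0.53 ± 0.024 SE, adjusted p = 1.5e-22).

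*Zic1* (chromosome 9, 91358058 to 91365810, minus strand), a zinc finger factor that is present from the granule cell precursor to the adult neuron, fell almost as much. It had 990.2, 1024 and 1022 CPM in Cb-N and 738, 711 and 701 CPM in Cb-T, which do not overlap. It fell by 29.2% (log2 fold change -0.50 ± 0.022, adjusted p = 1.5e-22). Its close relative *Zic2* (chromosome 14, 122475435 to 122479852, plus strand) fell by less, from 183, 195 and 196 CPM to 155, 151 and 152 CPM (log2 fold change -0.32 ± 0.029, adjusted p = 9.4e-13). The ratio of *Zic1* to *Zic2* counts within a library does not depend on the scaling, and it was 5.42, 5.25 and 5.22 in Cb-N and 4.75, 4.7 and 4.62 in Cb-T. All 3 Cb-T ratios lay below the Cb-N ratios (exact two-sided permutation p = 0.1, the smallest that 3 against 3 libraries can give). *Zic1* shares 60 exon bases, 1.05% of its exons, with the antisense gene *Zic4*, and whether the counting used strand is not stated.

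*Neurod1* (chromosome 2, 79452521 to 79456751, minus strand), a basic helix-loop-helix factor needed for granule cells to differentiate and survive, was at 438, 445 and 458 CPM in Cb-N. In Cb-T it was at 377, 363 and 359 CPM, all below Cb-N. It fell by 18.1% (log2 fold change -0.29 ± 0.024, adjusted p = 1.8e-13). Of its exon bases, 7.37% are shared with *Cerkl* on the same strand and 5.64% with the antisense gene *Gm26755*.

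*Barhl1* (chromosome 2, 28907679 to 28916668, minus strand), a homeobox factor of granule precursors and migrating granule cells, was the scarcest of the 10, with 268 to 338 counts per Cb library. It had 12.9, 14.1 and 12.9 CPM in Cb-N and 13.8, 13.9 and 11.4 CPM in Cb-T. The groups overlapped, and the log2 fold change of -0.028 had a 95% interval of -0.19 to 0.14 (adjusted p = 0.8). Its sign turned when a single library was left out, to 0.012 without library Cb-N 2 and 0.059 without library Cb-T 3, and with scaling by library size alone, to 0.015.

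*Gabra6* (chromosome 11, 42306437 to 42321072, minus strand), the alpha 6 subunit of the GABA-A receptor and the standard marker of the mature granule cell, stood at 868, 867 and 859 CPM in Cb-N. The Cb-T libraries had 671, 652 and 663 CPM. *Gabra6* fell by 23.4% with no overlap (log2 fold change -0.39 ± 0.022, adjusted p = 2.8e-19). *Gabrd*, which encodes the delta subunit that joins alpha 6 in extrasynaptic receptors, had a log2 fold change of -0.28 (adjusted p = 3.9e-11), and the ratio of *Gabra6* to *Gabrd* counts was 4.55, 4.6 and 4.29 in Cb-N and 4.24, 4.13 and 4.09 in Cb-T (exact two-sided permutation p = 0.1).

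The genes of secreted and surface proteins of the parallel fiber differed in the size of their change. *Fat2* (chromosome 11, 55250609 to 55336564, minus strand), a giant cadherin of parallel fibers, had 1051, 1052 and 940.4 CPM in Cb-N and 778, 824 and 772 CPM in Cb-T. It fell by 22% although library Cb-N 3 was lower than the others (log2 fold change -0.36 ± 0.028, adjusted p = 1.6e-14). *Cbln1* (chromosome 8, 87468405 to 87472609, minus strand) encodes cerebellin 1, which parallel fibers release to hold their synapses on Purkinje cell spines together. Its 649, 659 and 679 CPM in Cb-N overlapped the 652, 620.1 and 625 CPM in Cb-T. The log2 fold change was -0.067 ± 0.023 (adjusted p = 0.015), and the call was lost without library Cb-T 2 (adjusted p = 0.12) and with scaling by library size alone (adjusted p = 0.39).

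*Cbln3* (chromosome 14, 55878913 to 55884392, minus strand), a cerebellin that leaves the cell only when assembled with cerebellin 1, was the most abundant member. It had 1764, 1769 and 1757 CPM in Cb-N and 1803, 1785 and 1796 CPM in Cb-T. All Cb-T libraries were above all Cb-N libraries, but by so little that the test made no call (log2 fold change 0.025, 95% interval -0.014 to 0.065, adjusted p = 0.29). *Calb2* (chromosome 8, 110137502 to 110168210, minus strand), the calcium-binding protein calretinin, had 364, 358 and 375 CPM in Cb-N and 378, 369.9 and 381 CPM in Cb-T, which overlap. Its log2 fold change was 0.041, with a 95% interval of -0.0077 to 0.09 (adjusted p = 0.16). Both genes were called higher with scaling by library size alone, at 0.068 for *Cbln3* (adjusted p = 0.0035) and 0.084 for *Calb2* (adjusted p = 0.0036), and *Calb2* also without library Cb-N 3 (0.05, adjusted p = 0.045). Both intervals lie above that of *Gabra6*, which was -0.43 to -0.34.

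A common factor was tested directly. For each gene in turn, the 6 Cb libraries were scaled to the geometric mean of the other 9 members, so that a gene that moved with them has a relative log2 fold change of 0. Of the 10 genes, 5 were lower than the others at an FDR below 0.1 and 4 were higher. None differed 1.5-fold. On a scale set by all 10 members, 6.46% of the 16382 genes tested were lower and 66.6% were higher.

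*Etv1* was the lowest relative to the other 9, with -0.32 ± 0.032 (adjusted p = 8.1e-22). *Zic1* had -0.29 (adjusted p = 1.3e-18) and *Gabra6* -0.16 (adjusted p = 1.1e-06). *Fat2* had -0.13 (adjusted p = 2.0e-04) and *Zic2* -0.091 (adjusted p = 0.014). *Neurod1* was not called, at -0.052 with a 95% interval of -0.11 to 0.0085 (adjusted p = 0.12). The terminal products other than *Gabra6* and *Fat2* were relatively higher, *Cbln1* by 0.19 (adjusted p = 1.3e-09), *Cbln3* by 0.30 (adjusted p = 6.8e-21) and *Calb2* by 0.31 (adjusted p = 1.9e-20). *Barhl1* was relatively higher by 0.24 (adjusted p = 0.0075) on far fewer counts. The relative level of the 6 libraries did not overlap between groups except for *Barhl1* and *Fat2*, and the exact two-sided permutation p was 0.2 for these and 0.1, the smallest possible, for the other 8. Each relative value depends on which genes form the reference, so its sign is against the other 9 and not against the tissue.

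**Figure D3:**
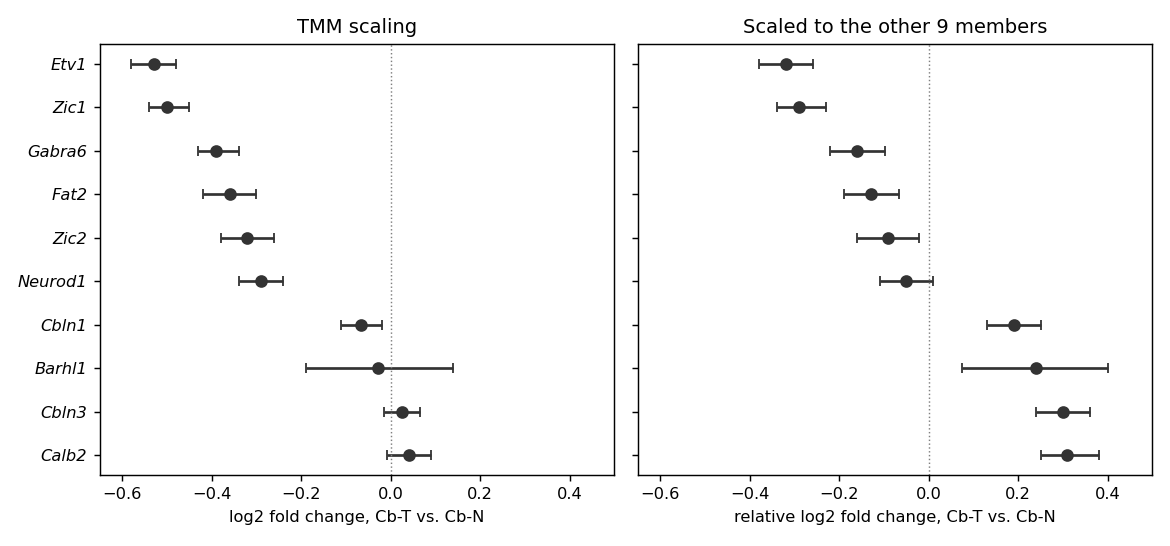
Log2 fold change of the 10 genes in Cb-T vs. Cb-N (left, TMM scaling) and relative to the other 9 members (right), each point with its 95% confidence interval. On the left the genes run from -0.53 to 0.041, and on the right the intervals of all genes but Neurod1 leave out 0.

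The same spread can be written without any scaling, as counts divided by those of *Gabra6* in the same library. This restates the differences between the fold changes above and is no separate support for them. All the ratios also share *Gabra6*. *Cbln3* had 2.03, 2.04 and 2.05 counts per count of *Gabra6* in Cb-N and 2.69, 2.74 and 2.71 in Cb-T. For *Calb2* the ratio was 0.419, 0.413 and 0.437 in Cb-N and 0.564, 0.568 and 0.574 in Cb-T. For *Cbln1* it was 0.748, 0.759 and 0.791 in Cb-N and 0.971, 0.951 and 0.942 in Cb-T. These 3 genes thus gained on *Gabra6* in every Cb-T library. *Etv1* lost against it, with 0.614, 0.617 and 0.626 in Cb-N and 0.569, 0.552 and 0.559 in Cb-T. *Zic1* lost as well, from 1.14, 1.18 and 1.19 to 1.1, 1.09 and 1.06. *Fat2* kept to *Gabra6* within its spread, with overlapping groups and a mean ratio of 1.17 in Cb-N and 1.2 in Cb-T (exact two-sided permutation p = 0.7). The 8 other ratios did not overlap between the groups, each with an exact two-sided permutation p of 0.1. These ratios were chosen after the values had been seen.

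*Etv1* (the lowest fold change) and *Gabra6* (the reference of the ratios above) were called lower in Cb-T, and *Barhl1* was not called, on the fewest counts of the 10. The 250 bases before a RefSeq start of each are printed 5′ to 3′ in the direction of transcription. They were taken from RefSeq for GRCm38.p6, whose promoter table holds 7 of the 10 genes, and none of the 3 windows holds a GENCODE exon. The *Etv1* window lies inside the span given for that gene above, since GENCODE also has transcripts that start farther upstream, whereas the other windows lie just outside their genes. The windows are chr12:38779832-38780081 on the plus strand, chr11:42321073-42321322 on the minus strand and chr2:28916669-28916918 on the minus strand. Capitals mark CAGCTG or CAGATG on either strand, 2 forms of the E-box that basic helix-loop-helix factors such as the *Neurod1* product can bind.
Etv1: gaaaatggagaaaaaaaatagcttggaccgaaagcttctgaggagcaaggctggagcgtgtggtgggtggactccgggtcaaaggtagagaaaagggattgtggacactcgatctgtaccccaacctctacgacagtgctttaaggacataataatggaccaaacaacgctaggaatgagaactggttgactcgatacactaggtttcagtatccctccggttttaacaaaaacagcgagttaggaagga
Gabra6: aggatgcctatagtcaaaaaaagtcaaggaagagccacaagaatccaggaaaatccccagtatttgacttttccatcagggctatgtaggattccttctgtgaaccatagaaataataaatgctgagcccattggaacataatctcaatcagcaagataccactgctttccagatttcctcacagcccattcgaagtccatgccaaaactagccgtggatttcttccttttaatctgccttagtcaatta
Barhl1: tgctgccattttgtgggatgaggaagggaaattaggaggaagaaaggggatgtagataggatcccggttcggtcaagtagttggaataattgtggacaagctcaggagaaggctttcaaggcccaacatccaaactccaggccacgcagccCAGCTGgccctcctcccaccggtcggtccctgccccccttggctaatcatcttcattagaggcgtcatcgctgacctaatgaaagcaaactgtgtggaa

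*Barhl1* holds 1 CAGCTG that begins 99 bases before the start, and the windows of *Etv1* and *Gabra6* hold neither form. CAGCTG occurred in 13% and CAGATG in 14.4% of the 32851 RefSeq promoter windows of the same length, and 25.5% held at least 1 of them. Of the other windows of members, the second start of *Barhl1* holds a CAGCTG and the second start of *Etv1* a CAGATG, whereas those of *Neurod1*, *Zic1*, *Fat2* and *Cbln3* hold neither. The letters say nothing of whether a factor binds there.

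In F/M, 2 of the 10 genes were lower in F/M-T than in F/M-N and none was higher (at an unadjusted p under 0.05, 1 was, *Cbln1*, and 0 were with DESeq2 or limma-voom at the FDR), where 14.4% of the 16665 genes tested were lower and 12.8% higher. Libraries did not overlap for 6 members, against 35.6% of all genes. *Etv1* was again lower, with 89.6, 87.9 and 85.7 CPM in F/M-N and 77.7, 77.8 and 79.2 CPM in F/M-T, which do not overlap (log2 difference -0.16, adjusted p = 0.0025). *Barhl1* had 1.05, 1.35 and 1.64 CPM in F/M-N and 0.695, 0.857 and 0.765 CPM in F/M-T. It was the 1 DEG among the 10 (log2 fold change -0.80, adjusted p = 0.031; 3.49% of all genes were DEG), on 16 to 40 counts per library. That call was lost without library F/M-N 3 (adjusted p = 0.13), without library F/M-T 1 (adjusted p = 0.11) and with DESeq2 (adjusted p = 0.11).

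Genes that F/M hardly expresses could not be measured well there. *Gabra6* had 11, 11 and 14 counts in F/M-N and 10 in each F/M-T library, and *Fat2* had 14 to 28 counts over the 6 libraries. *Cbln3* had 28 to 45 counts. *Zic1* had 55.8, 55.8 and 58.4 CPM in F/M-N and 52.6, 53.6 and 53.6 CPM in F/M-T (log2 difference -0.09, adjusted p = 0.13), and was called lower in a single fit of all 12 libraries (-0.12, adjusted p = 0.009). *Cbln1* had a log2 difference of 0.15 (18.9, 17.5 and 18.1 CPM against 21.8, 19.1 and 19.7 CPM, adjusted p = 0.11). *Calb2*, with 65.8 to 71 CPM in F/M-N and 66.2 to 69.9 CPM in F/M-T, overlapped (log2 difference -0.022, adjusted p = 0.75).

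The interaction of tissue and genotype, fitted to all 12 libraries, tested whether a gene changed differently in Cb than in F/M. Of the 10 genes, 5 had a lower change in Cb, where 10.1% of the 17482 genes tested did, and 1 had a higher change, where 17.4% did. The difference was -0.39 on the log2 scale for *Zic1* (adjusted p = 3.5e-08), -0.36 for *Zic2* (adjusted p = 0.001) and -0.34 for *Etv1* (adjusted p = 1.6e-07), whose fall in Cb thus went beyond its fall in F/M. It was -0.20 for *Cbln1* (adjusted p = 0.019), a call lost without library F/M-T 1 (adjusted p = 0.12). For *Fat2* it was -0.73 (adjusted p = 0.068), which rests on few F/M counts and was lost with limma-voom (adjusted p = 0.27) and without any of 4 libraries (adjusted p = 0.13 to 0.22), namely F/M-N 1 and 3 and F/M-T 2 and 3. *Barhl1* had 0.79 (adjusted p = 0.029), lost without library F/M-N 3 (adjusted p = 0.14). No difference was called for *Gabra6* (-0.11, adjusted p = 0.88), *Neurod1* (-0.15, adjusted p = 0.17), *Cbln3* (0.35, adjusted p = 0.21) or *Calb2* (0.082, adjusted p = 0.21). *Neurod1* was called in 4 of the 12 fits that left out 1 library, those without F/M-N 3, F/M-T 1, Cb-T 1 or Cb-T 3 (adjusted p = 0.021 to 0.098). *Calb2* was called in 1, without library F/M-N 2 (adjusted p = 0.076).

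A further 17 genes known from granule cells were listed beside the 10. In Cb-T, 14 of the 17 were lower, none was higher (also at an unadjusted p under 0.05) and 3 were not called, with a median log2 fold change of -0.32, where 27.9% of all genes tested were lower and 29.8% higher. *Tlx3*, a homeobox gene, was the 1 DEG among them, with 3.74, 3.87 and 4.48 CPM in Cb-N and 2.9, 2.35 and 2.72 CPM in Cb-T (-0.60 on the log2 scale, adjusted p = 7.5e-04). *Grin2c*, the NMDA receptor subunit of mature granule cells, followed with -0.46 (adjusted p = 5.7e-20). *En2*, a homeobox gene of cerebellar patterning, had -0.44 (adjusted p = 1.9e-15), and *Reln*, which encodes the secreted protein reelin, had -0.40 (adjusted p = 2.8e-17). At the other end were *Mab21l1* with 0.034 (adjusted p = 0.53) and the potassium channel gene *Kcnk9* with -0.044 (adjusted p = 0.68), neither of them called, and the potassium channel gene *Kcnd2*, which was lower at -0.20 (adjusted p = 1.2e-09). The wider list ran from -0.60 to 0.034. In F/M, 5 of the 16 that could be tested were lower, where 14.4% of all genes were, and none was higher at either threshold.

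Of the 7 listed partners of the cerebellins, 4 were lower in Cb-T and 3 were higher. Over all genes tested, 27.9% were lower and 29.8% higher. Among those lower were *Nrxn2* at -0.14 (adjusted p = 4.9e-04) and *Nrxn3* at -0.29 (adjusted p = 4.8e-14), which encode presynaptic neurexins that cerebellins bind. *Cbln2*, a cerebellin used in other brain regions, rose from 1.58, 0.932 and 1.04 CPM to 11.3, 11 and 10.7 CPM (log2 fold change 3.20, adjusted p = 1.2e-22). *Cbln4* rose from 0.992, 1.21 and 1.18 CPM to 5.84, 4.99 and 4.9 CPM (2.21, adjusted p = 1.1e-14), and *Grid1* was higher at 0.26 (adjusted p = 5.5e-05).

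Genes of other cells and regions moved in the same libraries. Over all genes tested, 27.9% were lower in Cb-T and 29.8% higher. All 10 Purkinje cell markers were lower in Cb-T, with a median log2 fold change of -0.22, and their summed level was 9980.0 to 10232 CPM in Cb-N and 8427 to 8499 CPM in Cb-T. *Itpr1*, the calcium release channel of Purkinje cells, led them both in level and in change (4352 ± 161 CPM against 3512 ± 37.1 CPM, -0.31, adjusted p = 1.3e-16). Of the 7 interneuron markers, 6 were lower and 1 was higher (587 to 597 CPM against 456 to 474 CPM in sum), with *Kit* at -0.28 (adjusted p = 7.1e-13) and *Grm2*, a receptor of Golgi cells and unipolar brush cells, at -1.13 (adjusted p = 1.2e-17). The unipolar brush cell is another excitatory neuron of the granule layer, some of which contain calretinin. Its marker *Eomes* had 54.1, 53 and 55 CPM in Cb-N and 11.3, 12 and 11.9 CPM in Cb-T (-2.20, adjusted p = 4.0e-32), a far larger change than that of any of the 10 genes, while *Lmx1a* was not called (0.17, adjusted p = 0.4). *Eomes*, which is also a gene of the olfactory bulb and was listed there too, fell in F/M as well (-1.85, adjusted p = 4.7e-07), and its change was not called different between the areas (interaction adjusted p = 0.29). The sum of these 2 markers was 56.4 to 57.5 CPM in Cb-N and 14.2 to 15.3 CPM in Cb-T.

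The microglia, astrocyte and oligodendrocyte lists were higher in Cb-T, where 29.8% of all genes tested were higher and 27.9% lower. All 10 microglia markers were higher, with a median of 1.75 and a summed level of 150.0 to 160.2 CPM in Cb-N and 513 to 526 CPM in Cb-T, among them *Cd68* (3.13, adjusted p = 7.2e-28). All 5 astrocyte markers were higher (1514 to 1528 CPM against 3115 to 3157 CPM in sum), among them *Aqp4* (0.79, adjusted p = 2.9e-30) and *Gfap* (2.91, adjusted p = 1.4e-50). The 7 oligodendrocyte markers were higher by a median of 0.33 (4684 to 4797 CPM against 6195 to 6274 CPM), led by *Mbp* (0.50, adjusted p = 7.1e-25). Of the 4 Bergmann glia markers, 2 were lower and 2 higher (2141 to 2166 CPM against 2066 to 2083 CPM), among them *Slc1a3* (-0.083, adjusted p = 4.4e-04) and *A2m* (0.40, adjusted p = 4.5e-16).

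A list of 17 hindbrain genes held *Hox* genes and genes of brainstem neurons, of which *Slc6a5*, a glycine transporter gene, is also used by Golgi cells. Of the 15 tested, 14 were higher in Cb-T, where 29.8% of all genes tested were higher. The sum of all 17 was 50.3 to 54.1 CPM in Cb-N and 76.4 to 78.6 CPM in Cb-T, and most of it in both was *Slc6a5* (49.5 and 48.7 CPM on average). Without that gene, a split made after the values had been seen, the other 16 summed to 2.41 to 3.2 CPM in Cb-N and to 28.1 to 29.7 CPM in Cb-T. In Cb-N 4 of the 17 were at 0 in all libraries, and none was in Cb-T. *Hoxb5* was at 0 there, with 0 counts in each Cb-N library and 76, 58 and 50 counts in Cb-T (adjusted p = 3.3e-15), whereas *Slc6a5* had a log2 fold change of -0.022 (adjusted p = 0.7). In F/M, 14.4% of all genes tested were lower in F/M-T and 12.8% higher. Of the 9 olfactory bulb genes, 7 were lower there (74.2 to 78.3 CPM against 48.5 to 49.6 CPM in sum), among them *Cdhr1* (-1.07, adjusted p = 1.5e-10) and *S100a5* (1.97 ± 0.23 CPM against 0 to 0.128 CPM, adjusted p = 6.3e-08). Other lists moved in F/M too: 8 of 10 microglia markers (403 to 416 CPM against 611 to 619.9 CPM in sum) and all 5 astrocyte markers (777 to 802 CPM against 1341 to 1367 CPM) were higher in F/M-T. Of the 3 hindbrain genes that could be tested there, 2 were higher, and the 16 without *Slc6a5* summed to 5.01 to 5.92 CPM in F/M-N and to 14.4 to 14.6 CPM in F/M-T. What part any of these markers has in the values of the 10 genes was not tested.

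**Figure D4:**
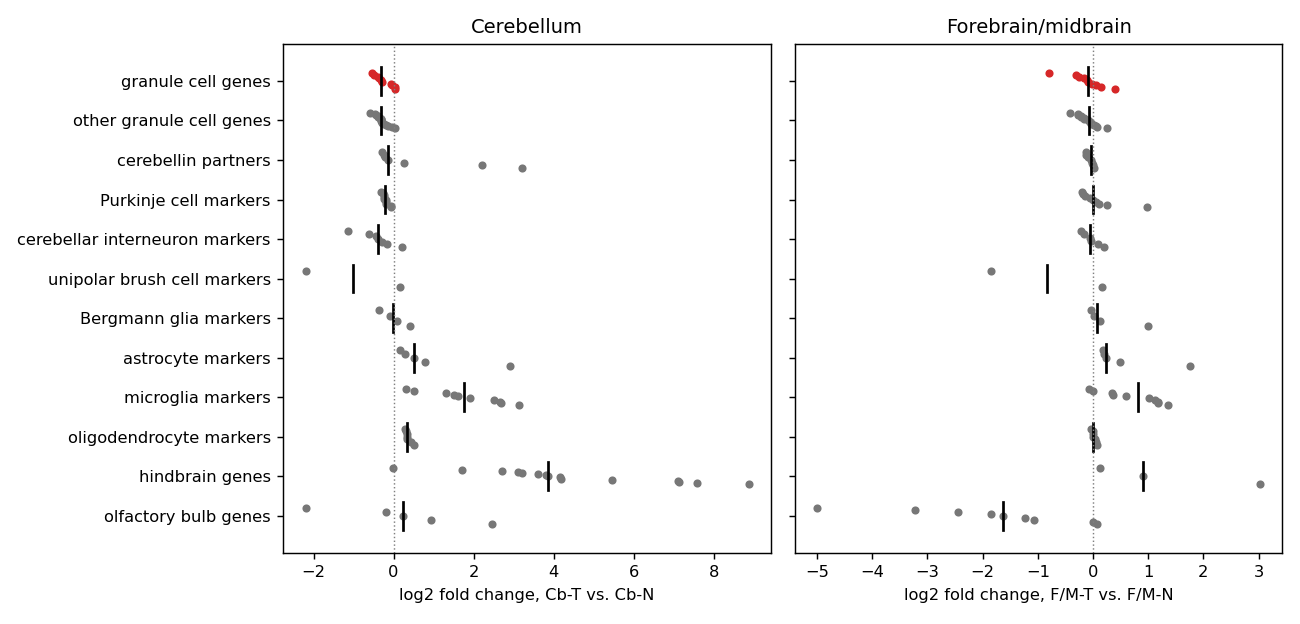
Log2 fold change of each tested gene of the 12 lists in Cb-T vs. Cb-N (left) and F/M-T vs. F/M-N (right), with 1 point per gene, the 10 granule cell genes in red and a black line at each list's median. The granule cell and Purkinje cell lists sit mostly left of 0 in Cb, and the microglia, astrocyte and oligodendrocyte lists sit right of it. Values of hindbrain genes at 0 in Cb-N depend on the fit's prior count.

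Genes outside the lists with the profile most like that of the 10, by Pearson's r of log2 CPM with their mean over the 12 libraries, were *Chn2* (r = 0.9999), *Sycp1* (0.9997), *Tprn*, *Hpcal1* and *Inpp5a* (0.9996 each). These coefficients describe 4 groups set apart mainly by tissue, so they are given with no test. In Cb-T *Chn2* had 839 CPM against 942 CPM in Cb-N on average (log2 fold change -0.17, adjusted p = 5.9e-09), and *Inpp5a* had 401 CPM against 455 CPM (-0.18, adjusted p = 1.1e-08). *Sycp1*, which had no count in F/M, had 19.3 CPM against 27 CPM (-0.48, adjusted p = 6.5e-09). *Tprn* (-0.095, adjusted p = 0.018) and *Hpcal1* (-0.12, adjusted p = 2.2e-04) differed by less. Among the 10 genes themselves, deviations from the group means over the 6 Cb libraries correlated with a median r of 0.29 across 45 pairs, from -0.96 to 0.97, a description over libraries that also share their scaling.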

How the data were processed

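The 12 libraries were poly(A)-selected TruSeq stranded libraries sequenced as single-end reads. The authors aligned the reads to GRCm38 (mm10) with STAR, counted them per gene with featureCounts of Rsubread 1.26.1 and deposited raw counts, without normalization. The sources differ on the STAR version, which is not given here. The strand setting, the handling of multimapped reads and the annotation release are not given in the sources used here.

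From these counts, genes were kept by filterByExpr (minimum count 10, minimum total 15), normalized by TMM and tested with the quasi-likelihood test of edgeR 4.0.16 in R 4.3.3 over all genes kept, with Benjamini-Hochberg adjustment. Every adjusted p comes from this test unless another is named. A gene was called at FDR below 0.1, and was a DEG with at least 1.5-fold. Levels per kb used the union of GENCODE M21 exons. Intervals are 95%. DESeq2 1.42.0, limma 3.58.1, other scalings, no filter, a single fit, a replicate block and leaving out each replicate were alternatives. The scripts were tested on simulated data.

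The 10 genes and all lists were chosen with earlier results of these data known. Named were *Tpp1*, the 10 genes, the cerebellin partners, the 4 lowest and 4 highest of the other granule cell genes, the most abundant and the most changed gene of every other list, and the 5 genes most like the 10. Other genes that appear were named after their values were seen (*Gabrd*, in a ratio) or for overlapping a member. Results of a few genes that this rule names are not reported here.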

Additional observations from a re-analysis of the deposited data

Results flagged for a closer look

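For 6 of the 10 genes the change with genotype differed between Cb and F/M by the interaction test of edgeR, on the log2 scale and with Benjamini-Hochberg adjustment over 17482 genes. The difference was -0.39 for *Zic1* (adjusted p = 3.5e-08), -0.36 for *Zic2* (adjusted p = 0.001), -0.34 for *Etv1* (adjusted p = 1.6e-07) and -0.20 for *Cbln1* (adjusted p = 0.019). *Fat2* had -0.73 (adjusted p = 0.068) and *Barhl1* 0.79 (adjusted p = 0.029), both on few counts in F/M. *Zic1*, *Zic2* and *Etv1* were called in all 12 fits that left out 1 library, whereas the other 3 were not. *Barhl1* was lower in F/M-T than in F/M-N, and no change of it was called in Cb.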

How the results depend on the processing

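All 10 genes were higher in Cb-N than in F/M-N under every alternative. In Cb, 6 to 7 were lower and 0 to 1 higher when 1 library was left out, and 2 were higher with scaling by library size alone. *Barhl1* changed sign there (0.015, and 0.012 and 0.059 without Cb-N 2 or Cb-T 3, within -0.079 to 0.059 over the fits without 1 library). In F/M, leaving out 1 library gave 1 to 2 lower, 0 to 1 higher and 0 to 1 DEG, DESeq2 gave 1 lower and 0 DEG, library size alone gave 1 higher (*Cbln1*), and a single fit of 12 libraries gave 3 lower (*Zic1* at -0.12, adjusted p = 0.009). *Zic2* turned to -0.0082 and -0.0035 without F/M-N 1 or F/M-T 3 (range to 0.11), and *Calb2* to 0.00035 without F/M-N 3 (range from -0.053). The interaction gave 4 to 6 lower, 0 to 2 higher and 0 to 2 past 1.5-fold when 1 library was left out, and 1 past 1.5-fold with limma-voom. Against the other members, 5 were lower and 4 higher whichever library was left out. With the 17 other granule cell genes as the reference, *Neurod1* had 0.0084 and *Zic2* was no longer called (-0.026, adjusted p = 0.44). With *Gabra6* alone, an alternative added after seeing the data, 2 were lower and 6 higher, and *Neurod1* (0.097), *Zic2* (0.062) and *Fat2* (0.028) changed sign. The causes were not tested.

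With replicate number as a block, F/M gained 1 higher gene, *Cbln1* (0.15, adjusted p = 0.064), and *Zic1* was called lower (-0.09, adjusted p = 0.093). Deviations of same-numbered libraries correlated by -0.039, 0.034 and 0.033 in Cb and by 0.0024, 0.15 and 0.023 in F/M, and by 0.025, 0.049 and 0.15 between Cb-N and F/M-N. The numbers were not taken as pairs, although such correlations cannot show that they are not pairs. Cb-T and F/M-T were not compared in this way. The sources name 3 mice per genotype for both areas without tying a number to a mouse, and the fits across areas treated all libraries as independent. The block changed no call of the 10 genes between Cb-N and F/M-N or in the interaction. Counts of 10 to 45 limit *Gabra6*, *Fat2*, *Cbln3* and *Barhl1* in F/M.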
